A study of Bos taurus with 106 samples.

Results

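The chaperones and co-chaperones of bovine liver described here were chosen by gene name. They are the array elements whose single annotated symbol begins with HSPA, HSPD, HSPE, HSPH, HSP90, DNAJ, PFDN or FKBP, begins with HSPB, CCT or BAG followed by a digit, or is TCP1, without DNAJB11. This gave 61 elements for 48 genes, out of 8208 elements on the array, of which 5621 carried 1 symbol. The members comprise 18 genes of the J protein family (22 elements), 6 of the HSP70 family (7), 6 chaperonin subunits or cofactors (7), 5 prefoldin subunits (7), 4 BAG genes (5), 3 HSP90 genes (3), 3 small heat shock genes (6) and 3 FKBP genes (4). All 61 elements had enough values to be tested. The name rule reaches beyond the cytosol and the mitochondrion: by their known location 32 genes encode cytosolic proteins, 5 mitochondrial ones, 8 proteins of the endoplasmic reticulum (ER) and 2 nuclear ones, and 1 was not assigned. HSPA5, HSPH1, DNAJA1, TCP1, CCT5, CCT6A, CCT7, FKBP5 and BAG3 were not analysed here.

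The samples were liver from 8 Holstein dairy cows, taken on days -65, -30, -14, 1, 14, 28 and 49 around calving. During a dry period of 65 days, 4 cows were fed ad libitum (about 120% of the calculated energy requirement) and 4 were restricted to about 80% of it, on the same diet of 1.60 Mcal per kg. Of the ad libitum cows, 1 was missing on day -65 and 2 on day 49, which left 53 cow-days. Each liver cDNA was hybridised on 2-colour cDNA arrays, in both dye orientations, against a reference made from other tissues without liver, so every value below is the log2 ratio of liver over reference, centred on the median of its array, with 1 value per cow and day.

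Most proteins fold with help. HSP70 proteins grip unfolded stretches, J proteins (DNAJ) deliver clients to them and trigger their ATPase, and BAG proteins and HSPA4 release the nucleotide. HSP90 takes over late clients such as steroid receptors together with FKBP4, prefoldin hands actin and tubulin to the ring-shaped CCT chaperonin, and HSPD1 with its lid HSPE1 is the chaperonin of the mitochondrial matrix. Liver depends on these systems because it makes large amounts of secreted and mitochondrial protein, and around calving its metabolic load rises with the start of milk synthesis.

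Measured from the array median, the cytosolic members had a median liver over reference ratio below 0, and the ER and mitochondrial members had medians above 0. Because of the centring, a ratio of 0 does not mark equal signal in liver and reference. Single members went both ways, such as cytosolic HSPB8 at 1.57, DNAJC14 of the ER at -0.54 and mitochondrial HSPA9 at -0.20. Averaged over the days of each cow, 24 of the 42 cytosolic elements lay below 0 in all 8 cows and 6 lay above 0 in all 8, with a median of -0.22. The 9 ER elements had a median of 0.51, and 6 of them lay above 0 in all 8 cows. The 7 mitochondrial elements had a median of 0.41, with 4 above 0 and 0 below 0 in every cow, and both HSPE1 elements are among these 4. Over all 8061 tested elements the median was 0.01, and 35.2% lay below and 37.4% above 0 in all 8 cows. These ratios describe liver against one mixture of tissues, and in bulk liver fewer cells of a type and less RNA per cell cannot be told apart.

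The lowest ratios belonged to the general cytosolic chaperones. HSPA8, the constitutive cytosolic HSP70, had -1.42 ± 0.20 on one element and -1.24 ± 0.23 on the other (SD, n = 8 cows). HSP90AA1, the inducible cytosolic HSP90, had -1.34 ± 0.28, and HSPA4, a nucleotide exchange factor of the HSP70 family, had -1.11 ± 0.13. The 4 CCT subunits lay close together, from -1.09 ± 0.20 for CCT8 over -1.02 ± 0.08 for CCT3 to -0.95 ± 0.16 for CCT4, with CCT2 between CCT3 and CCT4. FKBP1A, the small cytosolic target of the drug FK506, had -1.03 ± 0.13 and -1.01 ± 0.14. HSP90AB1, the constitutive HSP90, was nearer 0 at -0.32 ± 0.11.

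Small heat shock proteins stood at the other end. HSPB8, which keeps misfolded proteins soluble, had the highest ratio of all members at 1.57 ± 0.20, with cows between 1.19 and 1.85. The 4 elements of HSPB1, a stress-induced small heat shock protein, disagreed in level, at 1.38 ± 0.21, 0.79 ± 0.25, 0.24 ± 0.09 and -0.15 ± 0.08. DNAJC12, a co-chaperone of phenylalanine hydroxylase and related enzymes, had 0.90 ± 0.35. The mitochondrial set included DNAJA3 at 0.69 ± 0.09, HSPE1 at 0.53 ± 0.09 and 0.50 ± 0.13, HSPD1 at 0.41 ± 0.22 and the mitochondrial HSP70 HSPA9 at -0.20 ± 0.26. HSPA9 lay below 0 in 6 cows and above 0 in 2.

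**Figure D1:**
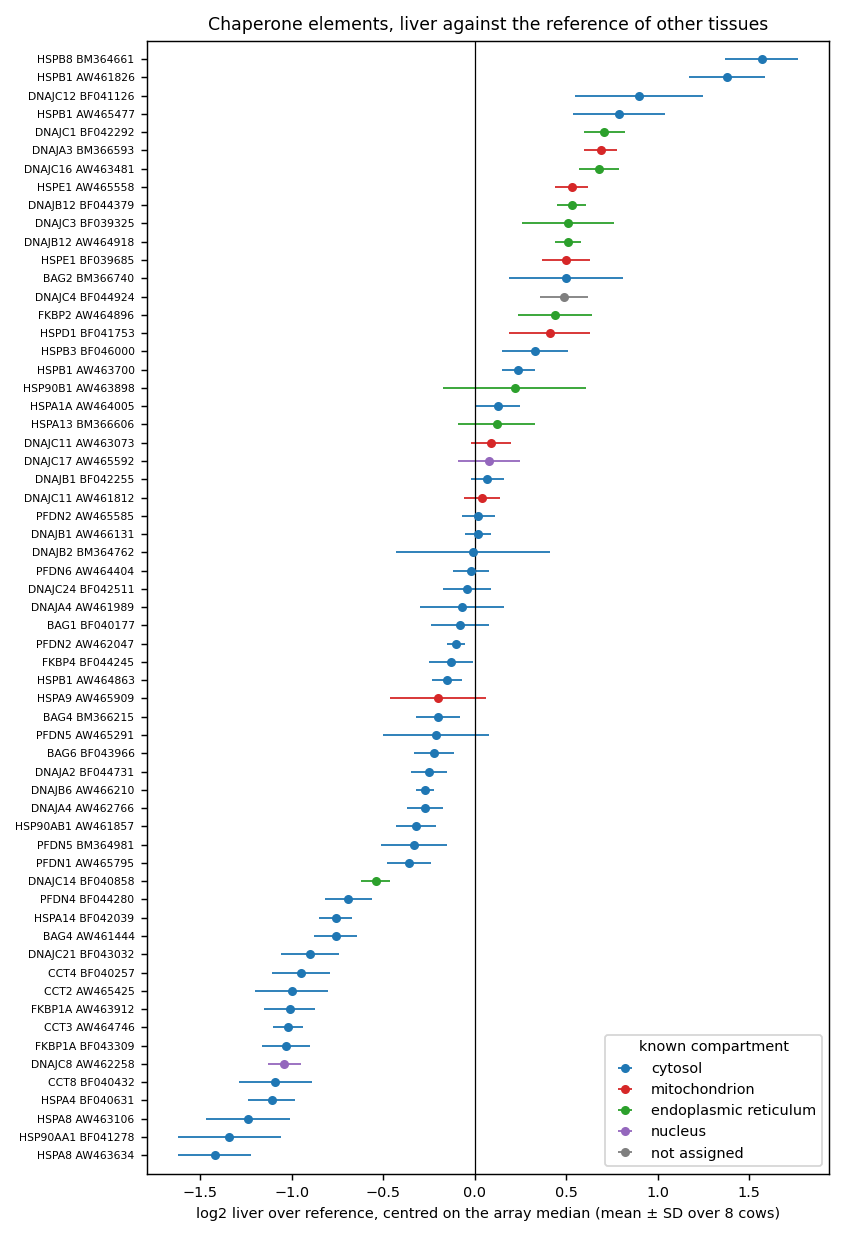
Mean log2 ratio of liver over the reference for each of the 61 elements (x axis), with bars of 1 SD over 8 cows and colours for the known compartment. HSPB8 at 1.57 is at the top and HSPA8 at -1.42 at the bottom, and blue cytosolic elements fill most of the lower end.

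Over the 7 days, 25 of the 61 elements, from 21 genes, changed (moderated F test in limma, Benjamini-Hochberg adjusted p under 0.05 over all tested elements). That share is near the background, because 43.4% of all tested elements changed. By family the count was 4 of 4 FKBP elements, 10 of 22 J protein elements, 4 of 7 prefoldin, 2 of 3 HSP90, 2 of 7 chaperonin, 1 of 5 BAG, 1 of 6 small heat shock and 1 of 7 HSP70 elements. By compartment it was 6 of 9 ER, 4 of 7 mitochondrial, 13 of 42 cytosolic and 2 of 2 nuclear elements. With the agreement of the dye orientations as a covariate 12 elements passed, and in uncentred values 48. The shares of all tested elements under these settings are not given here, so both counts are not a result about the members. The HSP70 element that changed was HSPA1A, the stress-induced HSP70 (adjusted p = 0.0129); HSPA8, HSPA9, HSPA4, HSPA13 and HSPA14 did not pass.

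**Figure D2:**
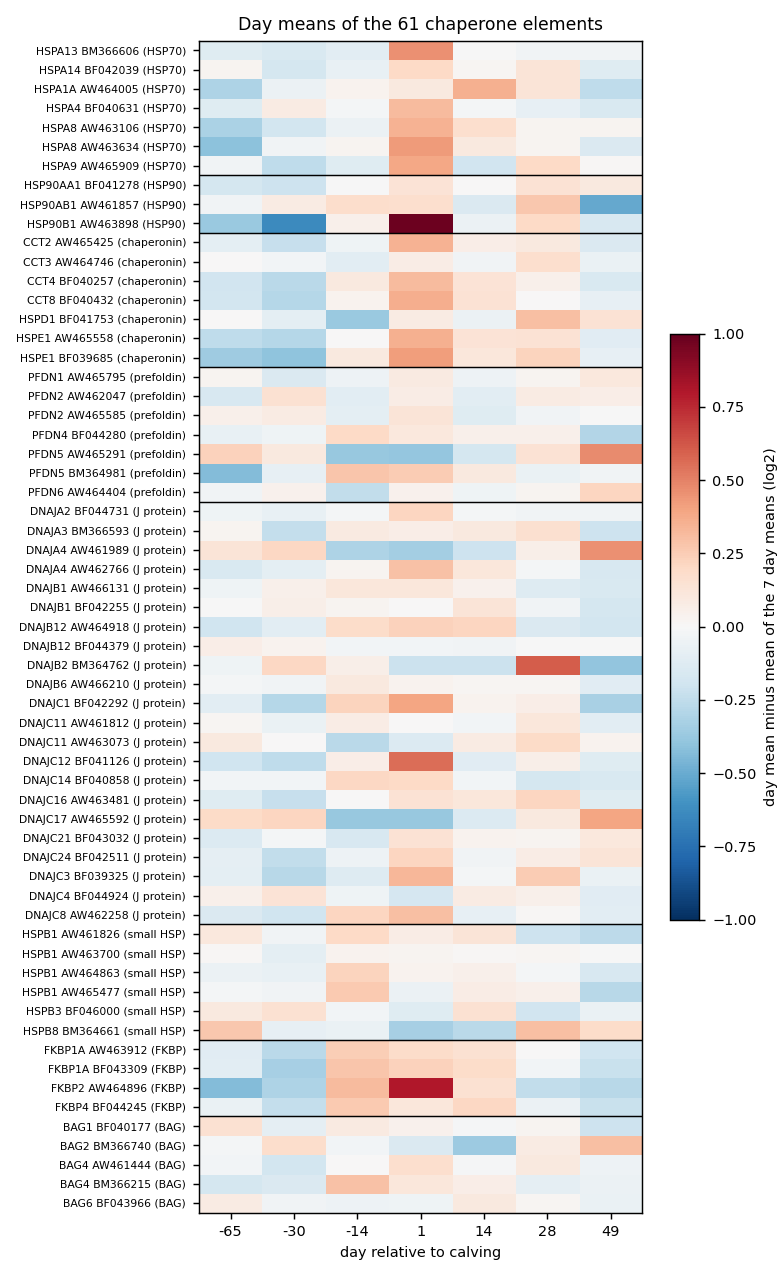
Day means of the 61 elements, each shown as its distance in log2 units from the mean of its 7 day means (colour), with days on the x axis and elements grouped by family. The FKBP block is red on days -14, 1 and 14, and the largest single departures are HSP90B1 and FKBP2 on day 1.

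Between day -65 and day -30, in the dry period, 0 of 61 elements passed in limma's test, against 0.112% of all tested elements. An unadjusted p under 0.05 was found for 5 (8.2%), beside 7.69% of all tested elements. The smallest p belonged to PFDN2 AW462047, a prefoldin subunit, at 0.05 on day -30 against -0.26 on day -65 (difference 0.32, SE 0.09, adjusted p = 0.217). Next came DNAJA3 at 0.45 on day -30 and 0.72 on day -65 (adjusted p = 0.432), and HSPB8 at 1.52 and 1.87 on the same days (adjusted p = 0.481). PFDN5 BM364981 had a difference of 0.37 and was higher on day -30 in 7 of 7 cows (adjusted p = 0.538).

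Between day -30 and day -14, in late pregnancy, the FKBP immunophilins rose together. FKBP proteins are prolyl isomerases: FKBP1A is cytosolic, FKBP2 resides in the ER and FKBP4 works with HSP90 on steroid receptors. All 4 of their elements rose, by 0.49 to 0.62 on the log2 scale. In all, 11 member elements rose (19.5% of all tested elements did) and 4 fell (14% of all did), from 15 called in limma's test. Their median difference was 0.14, and that of all tested elements was 0.06. The values were from arrays centred on their medians. Without centring, all elements moved up by a median of 0.48, and 27 members were then called higher and 0 lower; with centring and scaling the split was 16 higher and 2 lower. With cow as a fixed block and only these days, 8 members were called higher and 0 lower. For these settings no share of all tested elements is given here, so their counts are not a result about the members.

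FKBP1A BF043309 lay at -1.55, -0.67 and -0.19 (lowest, median, highest of 8 cows) on day -14, against -1.52, -1.36 and -1.11 on day -30. The groups overlapped through ad libitum cow 7050, the 1 cow of 8 that was not higher on day -14. The difference was 0.61 (SE 0.12, limma adjusted p = 0.0002). The other FKBP1A element, AW463912, gave 0.51 (SE 0.12, adjusted p = 0.00115), and both followed each other with a Pearson r of 0.98 over the 53 cow-days.

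FKBP4 lay at -0.42, 0.14 and 0.68 on day -14, against -0.76, -0.27 and -0.21 on day -30. It was higher on day -14 in 6 of 8 cows, including all 4 restricted cows (difference 0.49, SE 0.12, adjusted p = 0.00224). FKBP2 lay at 0.14, 0.77 and 1.55 on day -14, against -0.06, 0.13 and 0.30 on day -30. It was higher in 8 of 8 cows (difference 0.62, SE 0.18, adjusted p = 0.00621). With liver in Cy3 alone the FKBP2 difference was 0.24 and lost its call.

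The FKBP rise was larger in the restricted cows in these samples. FKBP1A BF043309 moved by a mean of 0.26 in ad libitum cows and 0.95 in restricted cows, FKBP4 by 0.18 and 0.81, and FKBP2 by 0.41 and 0.82, in the same order. The diet-by-day interaction did not pass for these elements (limma adjusted p = 0.264, 0.25 and 0.592), so a difference between the diets is not shown.

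Outside the FKBP family, BAG4 BM366215 rose in 8 of 8 cows. BAG4 is a BAG protein that holds death receptors silent. It lay at -0.32, 0.06 and 0.59 on day -14, against -0.51, -0.35 and -0.24 on day -30 (difference 0.44, SE 0.10, adjusted p = 0.0011). The second BAG4 element, AW461444, was at -0.77 on day -14 and -0.95 on day -30 without passing, and it did not follow the first over the cow-days (r = 0.06).

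HSPE1 BF039685, the mitochondrial chaperonin lid, lay at 0.15, 0.55 and 1.12 on day -14, against -0.51, 0.14 and 0.48 on day -30. It was higher in 8 of 8 cows (difference 0.50, SE 0.18, adjusted p = 0.0332). The second HSPE1 element gave 0.29 (adjusted p = 0.105), although both followed each other (r = 0.92). With liver in Cy3 alone the BF039685 difference was 0.02, and its call was lost without any one of 6 cows (all but 6886 and 6952). HSPD1, which forms the ring that HSPE1 closes, gave -0.27 (SE 0.25, adjusted p = 0.435).

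J proteins rose on 4 elements and fell on 2. DNAJC1, an ER membrane J protein, rose by 0.51 (SE 0.16, adjusted p = 0.0148), and DNAJC8, a nuclear J protein associated with splicing, rose by 0.42 (adjusted p = 0.0127). DNAJA3 of the mitochondrial matrix and DNAJB12 AW464918 of the ER membrane rose by 0.32 and 0.29. Each of these 4 was higher on day -14 in 6 or 7 of 8 cows. The second DNAJB12 element, BF044379, had 0.50 on day -14 and 0.56 on day -30. Without cow 7161 the calls of DNAJC8, DNAJC1 and DNAJA3 were lost, without cow 7187 those of DNAJA3 and DNAJB12, without cow 6952 those of DNAJC1 and DNAJB12, and without cow 6886 that of DNAJB12. The HSPB1 element AW464863 rose by 0.30 in 8 of 8 cows (adjusted p = 0.0154), whereas the other 3 HSPB1 elements did not pass; its call was lost without cow 6886, 7105 or 7187.

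The 4 elements that fell were DNAJC17, a nuclear J protein, by 0.60 on the log2 scale, DNAJA4 AW461989, a cytosolic J protein, by 0.52, and the prefoldin elements PFDN6 and PFDN2 AW462047 by 0.30 and 0.26. DNAJC17 lay at -1.72, -0.16 and 1.02 on day -14, against -0.09, 0.37 and 0.45 on day -30, and was lower on day -14 in 6 of 8 cows (adjusted p = 0.0169). PFDN6 lay at -0.79, -0.24 and 0.28 on day -14, against -0.19, 0.03 and 0.20 on day -30 (adjusted p = 0.0281). Restricted cow 6952 gave the lowest value of both on day -14, and restricted cow 6877 the highest. Each of the 4 lost its call without any one of 4 to 6 cows, and 6886 was among those cows in every case. In uncentred values PFDN6 and PFDN2 AW462047 took the opposite sign, at 0.13 and 0.16. The second DNAJA4 element, AW462766, had -0.25 on day -14 and -0.38 on day -30, and the second PFDN2 element, AW465585, had -0.08 and 0.10. DNAJC17 and DNAJA4 AW461989 correlated at 0.94 over the cow-days. They reached 0.9 or more with 497 and 515 of the other 8060 tested elements, in that order. Whether their falls belong to these genes or to that block of elements was not tested.

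The large cytosolic folding machines did not pass at this step. HSP70 gave 0 of 7 elements and HSP90 0 of 3. HSPA8 differed by 0.14 and 0.06, HSP90AA1 by 0.20 (SE 0.33), HSP90AB1 by 0.09 (SE 0.22), CCT2 by 0.19 (SE 0.22), CCT4 by 0.37 (SE 0.22), CCT8 by 0.32 (SE 0.26) and CCT3 by -0.08 (SE 0.10). HSP90B1, the HSP90 of the ER, gave 0.69 (SE 0.39, adjusted p = 0.169).

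**Figure D3:**
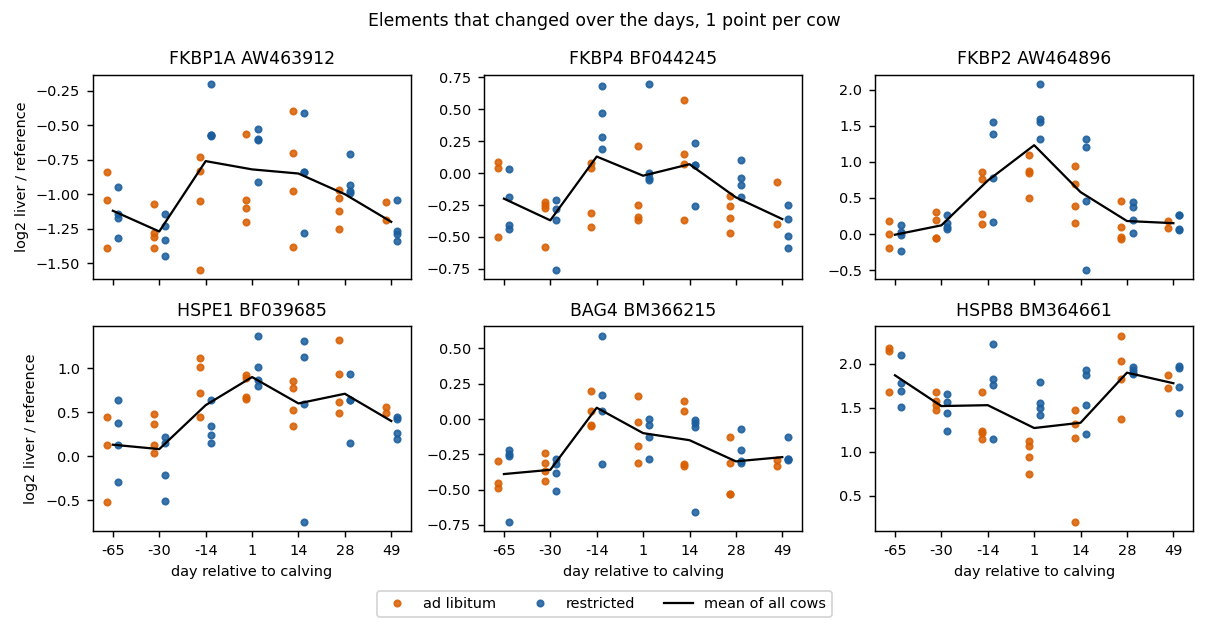
Log2 ratio of liver over reference (y axis) by day (x axis) for 6 elements that changed over the days. Each point is 1 cow, orange for ad libitum and blue for restricted, and the line joins the means of all cows. FKBP1A, FKBP4 and BAG4 lie highest on day -14, FKBP2 and HSPE1 on day 1, and HSPB8 is lowest on day 1.

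Related genes outside the name rule moved both ways at this step. Of 25 elements of co-chaperones and regulators (22 genes), 5 rose and 5 fell. PPIF, the prolyl isomerase of the mitochondrial matrix, rose by 0.56, and TBCC, a tubulin folding cofactor, and TOMM34, a co-chaperone of mitochondrial import, fell by 0.63 and 0.66. Of 23 elements for ER folding and translocation genes, 13 rose and 0 fell, among them HYOU1, an ER chaperone of the HSP70 superfamily, by 0.85.

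Markers of cell types moved at the same step. Of 3 hepatocyte elements 2 fell, and the mean of the list ranged over cows from 2.86 to 3.40 on day -14, against 3.69 to 4.21 on day -30. Of 7 endothelial elements 3 fell and 1 rose, with list means of 0.97 to 1.68 on day -14 and 1.39 to 1.97 on day -30. Of 7 stellate cell and fibroblast elements 4 rose and 0 fell, with list means of -2.31 to -0.74 and -2.64 to -2.39 on those days. Among 13 macrophage elements 2 rose and 4 fell, and the 1 neutrophil element and 1 of 5 T and NK cell elements rose. No cholangiocyte element of 2 passed. The agreement of both dye orientations of a cow-day also moved, with a mean correlation over elements of 0.753 on day -14 and 0.881 on day -30. The part of the marker shifts in the chaperone differences was not tested. When that agreement was added to the model as a covariate, the 4 FKBP elements and BAG4 BM366215 kept their call, and 8 members in all passed. The share of all tested elements that passed with this covariate is not given here.

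Between day -14 and day 1, just after calving, 0 of 61 elements passed, against 0.397% of all tested elements. An unadjusted p under 0.05 was found for 7 (11.5%), beside 9.86% of all tested elements. All 7 HSP70 elements and all 7 chaperonin elements had a higher mean on day 1, with median differences of 0.40 and 0.34. All 6 small heat shock elements had a lower mean. The other families were mixed, with 14 of 22 J protein, 4 of 7 prefoldin, 2 of 3 HSP90, 2 of 5 BAG and 1 of 4 FKBP elements higher. Over all tested elements the median difference was 0.00, and 4094 of 8061 were higher. Elements of the HSP70 and chaperonin families also correlate with each other. The smallest p belonged to DNAJA4 AW462766, at 0.01 on day 1 against -0.25 on day -14 (difference 0.26, SE 0.08, adjusted p = 0.166), then to FKBP2 at 1.23 against 0.74 (adjusted p = 0.27) and PFDN6 at 0.03 against -0.26 in 8 of 8 cows (adjusted p = 0.27). HSP90B1 lay at -0.93, 1.21 and 2.25 on day 1, against -1.47, 0.36 and 1.05 on day -14. Ad libitum cow 7187 was the one low cow on day 1, and the difference of 0.93 had an SE of 0.39 (adjusted p = 0.383). The negative side was led by HSPB1 AW464863 at -0.19, HSPB8 at -0.26 and BAG4 BM366215 at -0.18.

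After calving, from day 1 to day 14, 0 of 61 elements passed, against 0.707% of all tested elements. An unadjusted p under 0.05 was found for 10 (16.4%), beside 10.2% of all tested elements. FKBP2 came nearest, at -0.50, 0.58 and 1.32 on day 14 against 0.50, 1.20 and 2.08 on day 1 (difference -0.65, SE 0.18, adjusted p = 0.0725). DNAJC8 differed by -0.39 (adjusted p = 0.217) and HSP90B1 by -1.04 (adjusted p = 0.304). All 9 ER elements and all 7 chaperonin elements had lower means on day 14, with medians of -0.35 and -0.22, beside -0.01 over all tested elements. So had all 3 HSP90 elements, 6 of 7 HSP70, 6 of 7 prefoldin and 16 of 22 J protein elements. Lower means were also found for 3 of 4 FKBP, 4 of 5 BAG and 1 of 6 small heat shock elements. Of all 61 members 46 were lower, and of all 8061 tested elements 4262 were. On the positive side the smallest p belonged to DNAJC4 (0.25), DNAJC11 AW463073 (0.22) and HSPA1A (0.26), none passing.

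HSPA1A was highest on day 14 in the course over days. Its day means were -0.20, 0.05, 0.15, 0.21, 0.47, 0.24 and -0.14 from day -65 to day 49. Ad libitum cow 7050 alone reached 1.49 on day 14, and the other 7 cows lay between 0.12 and 0.60. The change over days kept its call without that cow and was lost without restricted cow 6877. The element is annotated with 2 gene IDs of the same symbol, so near-identical HSP70 copies cannot be told apart on it.

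Between day 14 and day 28, HSPB8 rose and DNAJB12 AW464918 fell. Across all tested elements 3.71% rose and 4.91% fell. HSPB8 lay at 1.37, 1.91 and 2.32 on day 28, against 0.20, 1.40 and 1.93 on day 14, and was higher in 7 of 8 cows (difference 0.57, SE 0.15, adjusted p = 0.00905). The groups overlapped, and ad libitum cow 7050 gave both the 0.20 of day 14 and the 2.32 of day 28; the call was lost without cow 7050 or cow 7045. DNAJB12 AW464918 lay at 0.14, 0.38 and 0.46 on day 28, against 0.49, 0.75 and 0.97 on day 14. The groups did not overlap and all 8 cows were lower on day 28 (difference -0.36, SE 0.10, adjusted p = 0.0143), and the call was lost without cow 7045 or cow 7187. The second DNAJB12 element, BF044379, had 0.52 on day 28 and 0.49 on day 14, and the pair shared an r of 0.27. With cow as a fixed block and only these days, 0 members passed. Without centring, all elements moved by a median of -0.44, 0 members were higher and 18 lower, and HSPB8 differed by 0.10. With scaling, 1 was higher and 3 lower. No share of all tested elements is given for these settings, so the counts are not a result about the members. At the same step 2 of 3 hepatocyte and 5 of 7 endothelial elements rose and 3 of 7 stellate cell elements fell. Beside the cows left out, HSPB8 kept its call in 5 of 9 other settings and DNAJB12 AW464918 in 6 of 9. The hepatocyte list ranged over cows from 3.87 to 4.54 on day 28, against 2.80 to 4.19 on day 14. The mean agreement of the dye orientations was 0.88 on day 28 and 0.749 on day 14. HSPB8 correlated with that agreement at 0.54 over the cow-days, and DNAJB12 AW464918 at -0.27. The part of these shifts in the differences of HSPB8 and DNAJB12 was not tested.

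Several of the elements that had risen on day -14 had negative differences at this step, which shares no samples with the earlier one. Of the 11 risen members 7 were lower on day 28 than on day 14, or 63.6%, and of the 4 fallen members 4 were higher, or 100%. Among all tested elements these shares were 88.4% and 90.2%. FKBP2 gave -0.40 (adjusted p = 0.171), FKBP4 -0.25 (adjusted p = 0.242) and FKBP1A BF043309 -0.21 (adjusted p = 0.347).

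Between day 28 and day 49, 0 of 61 elements passed, against 0.0124% of all tested elements. An unadjusted p under 0.05 was found for 7 (11.5%), beside 7.21% of all tested elements. HSP90AB1 had the smallest p, at -2.14, -0.72 and -0.32 on day 49 against -0.96, 0.04 and 0.46 on day 28 (difference -0.93, SE 0.25, adjusted p = 0.274). Ad libitum cow 7187 gave the -2.14, and 5 of 6 cows were lower on day 49. DNAJA3 was lower in 6 of 6 cows (difference -0.36, adjusted p = 0.46), and DNAJC1 differed by -0.40 (adjusted p = 0.675). DNAJA4 AW461989 was higher on day 49 in 6 of 6 cows (difference 0.41, adjusted p = 0.709).

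The full course of FKBP2 had the smallest p of all members (adjusted p = 1.03e-06 in the F test). Its day means were -0.01, 0.12, 0.74, 1.23, 0.58, 0.18 and 0.15 from day -65 to day 49. The lowest cow on day 1, at 0.50, lay above the highest cow of days -65, -30, 28 and 49. FKBP4 peaked earlier, with -0.20, -0.37, 0.13, -0.02, 0.07, -0.19 and -0.36 over the same days. HSPE1 BF039685 had 0.13, 0.08, 0.58, 0.90, 0.60, 0.71 and 0.40, with all 8 cows between 0.65 and 1.37 on day 1. HSPB8 ran the other way, with 1.87, 1.52, 1.53, 1.27, 1.33, 1.90 and 1.78. Over the cow-days HSPB8 correlated at 0.54 with the agreement of the dye orientations, the highest such value among the members. FKBP2, FKBP4 and HSPE1 BF039685 had -0.25, -0.10 and -0.37. The part of that agreement in these courses was not tested.

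HSP90B1, which folds secreted and membrane proteins in the ER, also changed over the days (adjusted p = 0.0221), with day means of -0.19, -0.46, 0.23, 1.16, 0.12, 0.38 and 0.02. Its cows spread widely, by an SD of 0.99 on day 1 and 0.71 on day -30, and the call was lost without any one of 4 cows (6877, 6886, 6952 or 7050). HSP90AB1 changed as well (adjusted p = 0.0403), with its lowest mean, -0.86, on day 49, and lost the call without cow 6877, 7045, 7050 or 7187. HSP90AA1 had day means from -1.57 on day -30 to -1.22 on day 28 and did not pass.

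The values of different cows lay further apart on days -14, 1 and 14. The SD over cows had a median over the members of 0.37, 0.29 and 0.45 on days -14, 1 and 14, against 0.27 on day -65, 0.20 on day -30, 0.22 on day 28 and 0.17 on day 49, so that day 1 was close to day -65. Over all tested elements it was 0.40, 0.36 and 0.42 on days -14, 1 and 14, against 0.26, 0.20, 0.20 and 0.16 on days -65, -30, 28 and 49. The agreement of the dye orientations was lower on the same days, with means of 0.753, 0.713 and 0.749 on days -14, 1 and 14, against 0.841, 0.881, 0.88 and 0.863 on days -65, -30, 28 and 49. Its part in the wider spread was not tested. HSP90AA1 ranged from -3.22 in restricted cow 6952 to 0.18 in ad libitum cow 7050 on day 14, a range that held both diets at each end.

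The remaining elements that changed over the days were of J proteins and prefoldin. DNAJA4 AW462766 had its highest mean on day 1, with -0.43, -0.38, -0.25, 0.01, -0.17, -0.30 and -0.44 over the 7 days (adjusted p = 0.000111). PFDN5 BM364981 had -0.77, -0.42, -0.06, -0.08, -0.24, -0.40 and -0.37 (adjusted p = 0.00474). Both thus stood higher around calving than on day -65, while the second element of each gene had its lowest means there, PFDN5 AW465291 with -0.58 and -0.59 on days -14 and 1 and DNAJA4 AW461989 with -0.37 and -0.40. DNAJC14 of the ER membrane was highest on days -14 and 1 (-0.34 and -0.35) and lowest on day 28 (-0.72). DNAJC16, also of the ER, was lowest on day -30 (0.44) and highest on day 28 (0.88). DNAJC11 AW463073, a mitochondrial J protein, was lowest on day -14 (-0.18) and highest on day 28 (0.28). Leaving out 1 cow ended the call over the days for DNAJC16 and PFDN5 AW465291 with any one of 6 cows, for DNAJC11 AW463073 with any one of 5, for DNAJA4 AW461989 with any one of 3 and for DNAJC14 with 1, and it ended neither that of DNAJA4 AW462766 nor that of PFDN5 BM364981.

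Some members that did not pass moved widely in single cows. DNAJC12 had its highest mean on day 1 at 1.44, with cows from -0.03 to 2.41, and day means from 0.63 to 0.95 on the other days (adjusted p = 0.338). HSPA13, an ER-associated HSP70 relative, had 0.56 on day 1, with cows from -0.89 to 1.88, and means from -0.05 to 0.10 on the other days (adjusted p = 0.371). DNAJB2, a neuronal J protein that directs clients to the proteasome, spanned -2.95 to 1.16 on day -65 alone. At the other extreme DNAJB6 stayed between day means of -0.39 and -0.18, and CCT3 between -1.13 and -0.85.

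HSP90AA1 and several other major chaperones, though not all, varied together over the single cow-days. Over the 53 cow-days HSP90AA1 correlated with CCT2 (r = 0.87), CCT8 (0.80), HSPD1 (0.80), HSPA9 (0.79) and HSPA8 AW463106 (0.79). After removing the mean of each diet and day these values were 0.90, 0.82, 0.84, 0.81 and 0.80. CCT2 and CCT8 reached 0.93. HSP90AA1 also correlated at 0.71 with each of the ER members HSP90B1 and DNAJC3. HSP90AB1 had no member partner above 0.43, and HSPD1 correlated with HSPE1 BF039685 at 0.45. HSP90B1 was closest to DNAJC3, an ER J protein, at 0.84, and also followed CCT8 at 0.81. The points share 8 cows, the reference RNA and the centring, and over all 1830 pairs of members the median r was 0.08. Such correlations were not confined to members. Of the other 8060 tested elements, CCT8 reached an r of 0.7 or more with 730 (9.06%), CCT2 with 670 (8.31%) and HSP90AA1 with 272 (3.37%). CCT8 reached 0.9 or more with 44 elements, of which 2 were members.

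HSPA1A was closest to DNAJB1, the partner J protein of stress-induced HSP70, and to HSPA8. It correlated with the DNAJB1 elements at 0.61 and 0.54, with the HSPA8 elements at 0.57 and 0.50, and with HSP90AA1 at 0.20. The FKBP elements correlated among themselves at 0.59 to 0.98 and with HSP90AA1 between -0.20 and 0.11. By family the median r between elements was 0.76 for FKBP, 0.60 for chaperonins, 0.57 for HSP70, 0.28 for HSP90, 0.17 for prefoldin, 0.07 for small heat shock proteins, 0.03 for J proteins and -0.01 for BAG. DNAJC4 had negative correlations, at -0.61 with HSP90AA1 and -0.65 with CCT8.

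**Figure D4:**
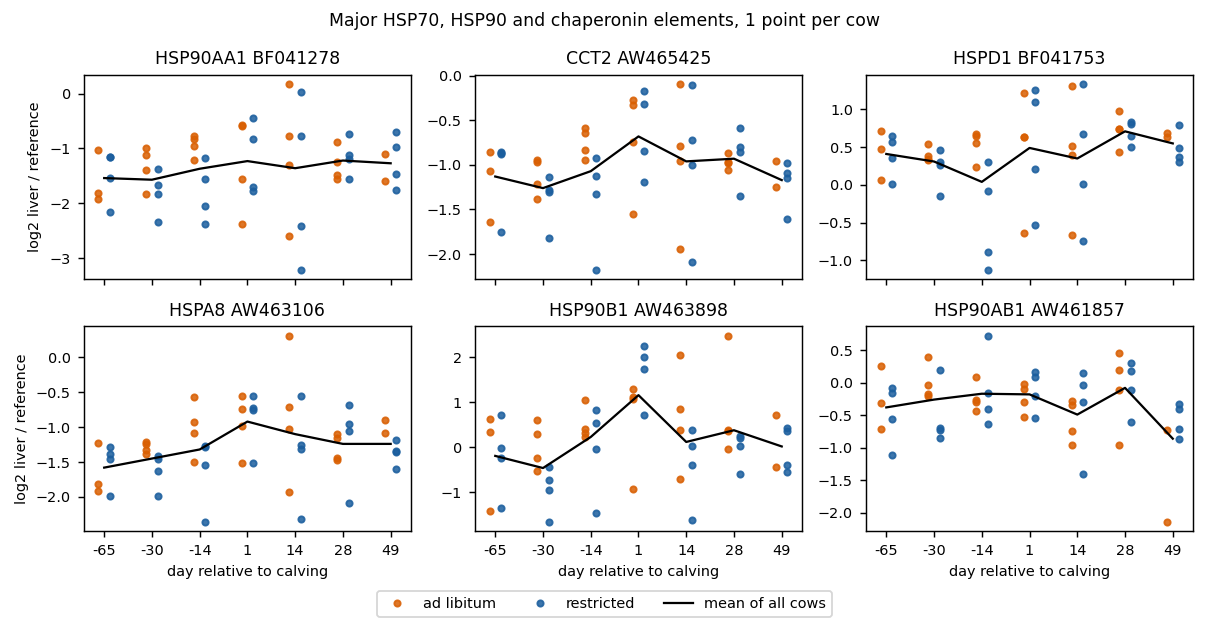
Log2 ratio of liver over reference (y axis) by day (x axis) for 6 elements of the HSP90, HSP70 and chaperonin families. Each point is 1 cow, orange for ad libitum and blue for restricted, and the line joins the means. The spread between cows is widest on days -14, 1 and 14 for HSP90AA1, CCT2 and HSPD1, for example HSP90AA1 between -3.22 and 0.18 on day 14. The other panels do not share this pattern, and HSP90AB1 spreads most on day 49, with an SD of 0.66.

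Feeding level separated few members. On day -30, 0 of 61 elements passed between the diets (0% of all tested elements, limma on the 8 cows of the day). An unadjusted p under 0.05 was found for 5 (8.2%), beside 7.55% of all tested elements. All 7 chaperonin elements, all 3 HSP90 elements and 6 of 7 HSP70 elements had higher means in ad libitum cows. In the other families 12 of 22 J protein, 4 of 6 small heat shock, 3 of 4 FKBP, 2 of 7 prefoldin and 2 of 5 BAG elements did. Over all tested elements 4027 of 8061 did, with a median difference of 0.00. Elements of some families correlate with each other, so such counts are not independent. HSP90B1 had 0.60, -0.24, -0.53 and 0.29 in ad libitum cows, against -1.66, -0.95, -0.43 and -0.73 in restricted cows (difference 0.97, SE 0.30, adjusted p = 0.642). The groups overlapped through ad libitum cow 7161 and restricted cow 7045. DNAJC24, a J protein of diphthamide synthesis, differed by 0.55 and HSPA8 AW463106 by 0.33, both without overlap, and PFDN5 BM364981 by -0.38 (adjusted p = 0.642 for each).

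On day -14, again 0 of 61 elements passed between the diets (0% of all tested). An unadjusted p under 0.05 was found for 9 (14.8%), beside 10.6% of all tested elements. Higher means in ad libitum cows were found for 7 of 7 chaperonin, 6 of 7 HSP70, 2 of 3 HSP90 and 5 of 7 prefoldin elements. The same held for 10 of 22 J protein, 2 of 5 BAG, 0 of 4 FKBP and 0 of 6 small heat shock elements. It held for 4056 of all 8061 tested elements. Elements of some families correlate with each other, so such counts are not independent. HSP90AA1 had -1.21, -0.95, -0.83 and -0.78 in ad libitum cows, against -1.17, -2.05, -1.56 and -2.38 in restricted cows (difference 0.85, SE 0.27, adjusted p = 0.398). HSPD1 had 0.68, 0.24, 0.65 and 0.55 in ad libitum cows, against 0.31, -1.13, -0.08 and -0.89 in restricted cows (difference 0.98, SE 0.32, adjusted p = 0.398). In both, restricted cow 6877 lay among the ad libitum cows. Of the 4 FKBP elements 3 pointed the other way and had an unadjusted p under 0.05, with -0.64 and -0.56 for FKBP1A and -0.56 for FKBP4, all without overlap (adjusted p = 0.411, 0.45 and 0.424). FKBP2 differed by -0.46 (adjusted p = 0.622), and its groups overlapped. BAG1, a nucleotide exchange factor of HSP70, gave -0.62 (adjusted p = 0.398). In a fit of all days with a shared spread and cow as a random replicate block, 5 members passed, all lower in ad libitum cows. The share of all tested elements that passed in that fit is not given here, for this or the later days. Its counts are therefore not a result about the members. Among markers, 7 of 13 macrophage elements and 3 of 5 T and NK cell elements had an unadjusted p under 0.05 on this day, with list medians of -0.56 and -0.96, and 0 passed.

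On day 1, 0 of 61 elements passed (0% of all tested). An unadjusted p under 0.05 was found for 7 (11.5%), beside 16.5% of all tested elements. FKBP2 had 0.50, 0.87, 0.84 and 1.10 in ad libitum cows, against 1.31, 2.08, 1.59 and 1.55 in restricted cows. The groups did not overlap (difference -0.80, SE 0.21, adjusted p = 0.0853). HSPB8 had 1.06, 0.75, 0.94 and 1.12 in ad libitum cows, against 1.42, 1.79, 1.50 and 1.55 in restricted cows, again without overlap (difference -0.60, SE 0.17, adjusted p = 0.0907). DNAJA4 AW461989 and PFDN5 AW465291 were higher in ad libitum cows by 1.11 and 1.26, with adjusted p of 0.0853 and 0.0953. All 9 ER elements and all 7 HSP70 elements had lower means in ad libitum cows, with medians of -0.32 and -0.24, beside -0.09 over all tested elements. So had all 4 FKBP and all 3 HSP90 elements, 6 of 7 chaperonin and 16 of 22 J protein elements. Lower means were also found for 4 of 7 prefoldin, 4 of 6 small heat shock and 1 of 5 BAG elements. Elements of some families correlate with each other, so such counts are not independent. Of all 61 members 45 were lower, and of all 8061 tested elements 4923 were. In the fit of all days with cow as a random replicate block, 2 members were higher and 1 lower in ad libitum cows, without a share of all tested elements to set beside them.

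On day 14, PFDN5 AW465291 and DNAJA4 AW461989 were higher in ad libitum cows and 0 members were lower; 6.05% of all tested elements were higher and 0.335% lower. PFDN5, a prefoldin subunit, had 0.45, 0.23, 0.40 and 0.23 in ad libitum cows, against -1.24, -0.33, -1.43 and -1.36 in restricted cows (difference 1.42, SE 0.26, limma adjusted p = 0.0324). DNAJA4 had 0.38, 0.48, 0.34 and 0.29 in ad libitum cows, against -1.07, -0.10, -1.33 and -1.14 in restricted cows (difference 1.28, SE 0.27, limma adjusted p = 0.0324). Neither pair of groups overlapped, and restricted cow 6952 lay nearest to the ad libitum cows in both. Each call was lost without any one of 7 cows, all except 6952, and 0 members passed when liver values came from Cy3 alone or when the 1 cow-day of low agreement between orientations was left out. In the fit of all days with cow as a random replicate block, 8 members were higher and 2 lower, without a share of all tested elements to set beside them.

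The other elements of these genes did not share the difference. PFDN5 BM364981 correlated with AW465291 at -0.58 over the cow-days, and DNAJA4 AW462766 with AW461989 at -0.08. In contrast, PFDN5 AW465291 correlated with DNAJA4 AW461989 at 0.95 and with DNAJC17 at 0.93, and with 535 of the other 8060 tested elements at 0.9 or more. Of those 535, 54.2% had an accession that begins with AW, against 30.3% of all tested elements. Outside the name rule the same comparison called 3 co-chaperone elements (HSF1, LONP1 and PPID), 3 ER folding elements (MANF, CALR and PDIA3), 1 macrophage element (CD163) and 1 cholangiocyte element (EPCAM), each higher in ad libitum cows and each with an AW accession. Whether the difference belongs to these genes or to that block of elements was not tested.

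On day 28, 0 of 61 elements passed between the diets (0% of all tested), and 2 had an unadjusted p under 0.05, PFDN5 BM364981 at -0.32 and FKBP4 at -0.26 (adjusted p = 0.992 for both). HSP90B1 had 0.36, -0.04, 2.48 and 0.39 in ad libitum cows, against 0.03, 0.25, 0.20 and -0.59 in restricted cows, without passing. The groups overlapped, and the difference of the means, 0.80 in ad libitum and -0.03 in restricted cows, rests largely on ad libitum cow 7161. The diets were not tested on day -65, when feeding had not yet differed for long and 3 ad libitum cows were measured. They were not tested on day 49 either, when 2 ad libitum cows were measured. As values only, HSP90B1 on day -65 was 0.62, 0.34 and -1.41 in ad libitum cows, against -1.35, -0.24, 0.72 and -0.02 in restricted cows.

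The diet-by-day interaction passed for 1 member, BAG6 (adjusted p = 0.0442), against 0.794% of all tested elements. BAG6 captures misfolded and membrane proteins in the cytosol. On day 14 it had 0.09, 0.17, 0.46 and 0.21 in ad libitum cows, against -0.58, -0.01, -0.59 and -0.76 in restricted cows, without overlap (difference 0.72, SE 0.22, adjusted p = 0.0918 on that day alone). On day -30 the order was opposite, with -0.45, -0.30, -0.30 and -0.28 in ad libitum cows against -0.16, -0.16, -0.24 and -0.16 in restricted cows. The call was lost without any one of 6 cows and in 6 of 8 other settings: without centring, with scaling, in either orientation alone, without the cow-days of low agreement and with no replicate block. Over all alternatives, single cows left out included, limma's adjusted p ranged from 0.00462 to 0.457. BAG6 correlated with PFDN5 AW465291 at 0.57.

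**Figure D5:**
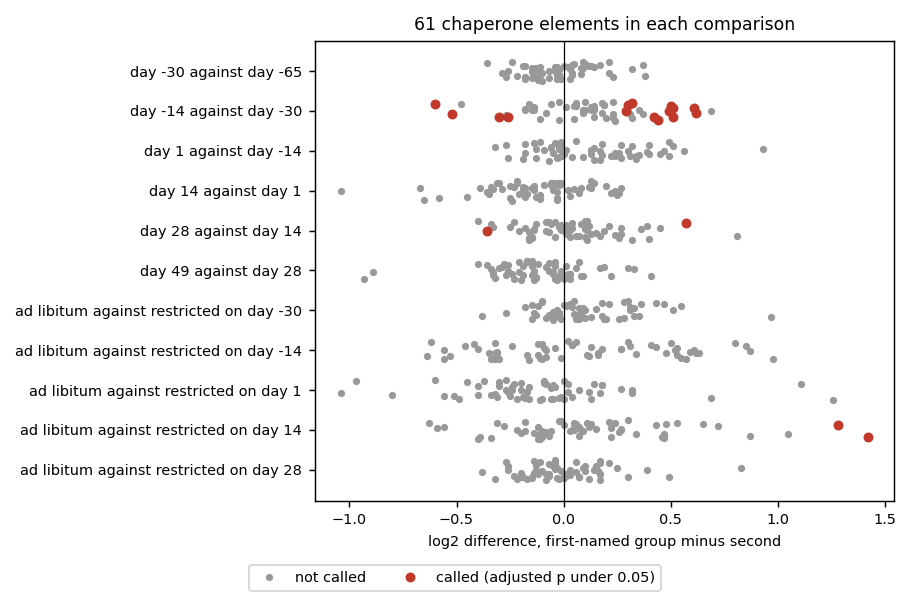
Log2 difference (x axis, first-named group minus second) of the 61 elements in each comparison (rows); red points passed limma's test and grey points did not. Red points occur in 3 of the 11 comparisons: 15 between days -14 and -30, 2 between days 28 and 14, and 2 between the diets on day 14.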

How the data were processed

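Each array gave 1 deposited log2 ratio of Cy5 over Cy3 for each of 16416 spots, 2 spots for each of 8208 elements. Per the labels' protocols the arrays were scanned with a Scanarray instrument and read with GenePix. Background correction, filters and normalization are not given in the sources used here, and precision is limited by the number of arrays, 106 for 53 cow-days. The medians of the arrays as deposited by the authors ran from -1.69 to 1.80 on the log2 scale, 1.23% of spot values were missing, and the 2 spots of an element correlated with a median r of 0.9. Dye orientation was taken from the titles, since the longer text of 4 arrays names the other dye.

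The 2 spots of an element were averaged. Ratios were given the direction liver minus reference, the median of the array was subtracted, and a cow-day took the mean of its dye-swapped arrays. Testing needed values from 2 or more cows in every one of the 14 groups, which 8061 elements had. In R 4.3.3, limma 3.58.1 (statmod 1.5.0) fitted the 14 diet-by-day means with cow as a random block; contrasts between consecutive days weighted both diets equally, and an F test covered the 6 day contrasts and another their differences between diets. Diets were compared within a day on its 8 cows. P-values are two-sided and adjusted by Benjamini-Hochberg over all tested elements, with a threshold of 0.05. Same-numbered samples came from the same cow, per the titles, and the within-cow correlation was 0.0176. The code was tested on simulated data.

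Elements were named by the probe gene table, and those with 1 symbol were used (5621). Of 63 elements that matched the name rule, DNAJB11 and 1 element with several symbols were left out. All 61 gene IDs matched the RefSeq gene table and 0 symbols changed. Elements of a gene with several are told apart by their accession. Named with values are up to 6 passing elements in each direction per comparison, a fixed panel of major chaperones, up to 3 elements in each direction where none passed, and all elements of a named gene. The cow-to-cow examples that did not pass, the covariation partners and the day courses were chosen after their values were seen. The members and all lists were chosen with earlier results of these data known. Correlations over cow-days are descriptions without a test. The alternatives were no centring, scaling, a single orientation, complete elements, each cow left out, other blocks, cow-days of low agreement left out and agreement as a covariate. B and plasma cell and erythroid markers had 0 elements.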

Additional observations from a re-analysis of the deposited data

Results flagged for a closer look

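In groups of 4 cows, 84 groups of the elements that passed a test were checked for a cow far from the other 3, and 9 were found. Chance alone finds such a cow in about 1 in 20 groups. The 84 groups share cows and arrays, so the 9 are not independent and an excess is not shown. Restricted cow 6952 stood apart on day -30 for 3 elements: DNAJB12 AW464918 at 0.08 (others 0.49 to 0.54), PFDN2 AW462047 at 0.00 (others 0.13 to 0.14) and DNAJA4 AW461989 at 0.32 (others 0.17 to 0.18). Ad libitum cow 7187 stood apart for DNAJC17 on day -14 at -0.53 (others -0.01 to 0.02), for FKBP4 on day -30 at -0.58 (others -0.27 to -0.23) and for DNAJB12 AW464918 on day 14 at 0.97 (others 0.49 to 0.56). Restricted cow 7105 had -0.20 for FKBP1A AW463912 on day -14 (others -0.58 to -0.57). For BAG6 on day -30, ad libitum cow 6886 had -0.45 (others -0.30 to -0.28) and restricted cow 7045 had -0.24 (others -0.16).

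The course of BAG6 over the days differed between the feeding levels by the interaction F test in limma (adjusted p = 0.0442). Both distant day -30 cows are among the 6 cows whose removal ended this call, and it also ended in 6 of 8 other settings.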

How the results depend on the processing

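Counts of members that passed are given as all, or as higher and lower. The shares of all tested elements that passed under these settings are not given here, so the counts have no background beside them. Without centring, 27 and 0 passed between days -14 and -30, 0 and 18 between days 28 and 14, 48 in the change over days and 0 in the interaction. With scaling, 1 and 3 passed between days 28 and 14, 4 in all, 1 between days 49 and 28 and 0 in the interaction. With liver in Cy3 only, 13 passed between days 28 and 14 (8 and 5), and 0 in the interaction and between the diets on day 14; with liver in Cy5 only, 1 passed between days 14 and 1, 1 between days 28 and 14, and 0 in the interaction. With orientation agreement as a covariate 8 passed between days -14 and -30, 1 between days 28 and 14, and 12 in the change over days. Leaving out the cow-days whose orientations agreed poorly, 0 passed in the interaction and between the diets on day 14. With no replicate block 0 passed in the interaction, and no other count moved by over 1.5 times. With cow as a fixed replicate block and 2 days, 8 passed between days -14 and -30 and 0 between days 28 and 14. With all days in 1 fit and cow as a random replicate block, 5 passed between the diets on day -14, 3 on day 1 and 10 on day 14.

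Leaving out each cow in turn gave 8 to 18 between days -14 and -30 (8 without 7187, 9 without 6886), 17 to 24 in the change over days, 1 to 2 between days 28 and 14 (1 without 7045, 7050 or 7187), 0 to 1 between days 1 and -14 and between days 14 and 1 (1 without 6877 in both), 0 to 4 in the interaction (4 without 6877 or 6952), 0 to 3 between the diets on day 1 (3 without 6877), 0 to 4 on day 14 (4 without 6952), and 0 in the other comparisons. Between days -14 and -30, PFDN6 turned to 0.13 and PFDN2 AW462047 to 0.16 without centring, and to 0.16 each with liver in Cy5 only, where DNAJB12 AW464918 was at -0.01. The cause of these changes was not tested. FKBP1A, FKBP4 and BAG4 BM366215 kept the call between days -14 and -30 in every alternative run. The precision rests on at most 4 cows per diet and day.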
